A study of Mus musculus with 12 samples.

Results

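The genes described here are named for the subunits of oxidative phosphorylation complexes I to V, together with the assembly factors of complex I whose symbols begin with Ndufaf. They were taken from the features of a whole-transcript array that name exactly 1 gene, by symbols beginning with Nduf, Uqcr, Atp5 or Cox4 to Cox8 and by the symbols Sdha, Sdhb, Sdhc, Sdhd and Cyc1, with symbols containing -ps left out. The rule found 98 features of 94 genes, among 72688 features and 30702 genes in the table. Of these 94 genes, 91 were bright enough to be tested, and Cox7b2, Cox8b and Ndufa4l2 were not. The tested genes, by symbol, were 36 of complex I, 8 complex I assembly factors, 4 of complex II, 9 of complex III, 18 of complex IV (with Ndufa4, now counted to that complex) and 16 of complex V. RefSeq lists Cox6c2, counted under complex IV, as a pseudogene and Ndufa11b, counted under complex I, as a transcribed pseudogene. No feature of the subunits encoded by the mitochondrial genome entered by this rule.

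Oxidative phosphorylation takes place in the inner mitochondrial membrane. Complex I oxidises NADH and complex II, which is also succinate dehydrogenase of the citric acid cycle, oxidises succinate. Both pass electrons through coenzyme Q to complex III and by cytochrome c to complex IV, which reduces oxygen, and complex V uses the proton gradient built by complexes I, III and IV to make ATP. Early erythroid precursors hold many mitochondria, which carry out the first and last steps of heme synthesis, and maturing red cells lose their mitochondria altogether. Several complex IV subunits exist as a general and a tissue-restricted isoform, and subunit c of the ATP synthase ring is encoded by several genes with the same mature protein.

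The cells were sorted erythroblasts of male mice, taken from the spleen on day 3 after phenylhydrazine. This drug lyses red cells, and the spleen answers by making new ones, so all 4 groups come from drug-treated animals. The groups were basophilic erythroblasts of selenium deficient mice, basophilic erythroblasts of selenium adequate mice, proerythroblasts of selenium deficient mice and proerythroblasts of selenium adequate mice, with 3 arrays each. Proerythroblasts are the earlier stage and basophilic erythroblasts the next, and the diets had been fed for 3 months. Selenium is the trace element that cells build into selenoproteins such as glutathione peroxidases. The labels do not give the strain, the age, the surface markers of the sort, or whether animals were pooled or gave both stages, so the p-values measure the spread between these samples, which may be technical. In sorted samples, fewer cells of a type and less RNA per cell cannot be told apart.

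Each array received 5 ng of total RNA, and all values below are deposited log2 values, on which a difference of 1 is a doubling. Replicate 2 of both basophilic groups stood apart. Their median values over the GC background features were 4.70 (deficient) and 4.19 (adequate), against 3.63 to 3.80 on the other basophilic arrays and 3.31 to 3.53 on the proerythroblast arrays. One description names deficient basophilic replicate 3 a proerythroblast sample against its title, and over all features the array correlated at r = 0.986 with deficient basophilic replicate 1, at 0.91 with deficient basophilic replicate 2 (which stood apart) and at 0.962 to 0.969 with the deficient proerythroblast arrays. It was kept by its title and cell type label. Of 8 erythroblast markers, 7 were measured, and their summed log2 values were 73.6 to 77.8 in deficient basophilic, 76.4 to 79.0 in adequate basophilic, 73.4 to 75.2 in deficient proerythroblast and 69.3 to 71.2 in adequate proerythroblast arrays.

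Promoters of 4 of these genes are shown first, because their genes stand at the ends of the patterns described. Ndufaf4 had the largest stage difference, Sdhd had a stage difference past the threshold on both diets with every array left out in turn, Uqcr11 had the smallest p for a diet difference that depended on stage, and Cox6a1 was higher in basophilic cells on the deficient diet. Each sequence is RefSeq's GRCm38.p6 window of 300 bases, from 250 before the start site to 50 after it, read 5′ to 3′ along the gene. Capitals mark the letters GCGCATG (part of the motif of NRF1, a regulator of nuclear-encoded respiratory genes) and CCGGAAG (a core bound by ETS family factors such as GABP), on either strand, so that the same motifs read CATGCGC and CTTCCGG on the other strand. GCGCATG matches on the 2 strands overlap where the run GCGCATGCGC is printed.
Ndufaf4, chr4:24897833-24898132, plus strand: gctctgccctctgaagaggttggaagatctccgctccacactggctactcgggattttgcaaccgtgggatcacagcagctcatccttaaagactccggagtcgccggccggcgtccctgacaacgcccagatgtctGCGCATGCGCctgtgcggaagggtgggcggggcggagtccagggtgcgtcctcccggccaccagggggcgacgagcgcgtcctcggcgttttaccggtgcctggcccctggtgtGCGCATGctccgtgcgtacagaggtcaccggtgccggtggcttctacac
Sdhd, chr9:50603800-50604099, minus strand: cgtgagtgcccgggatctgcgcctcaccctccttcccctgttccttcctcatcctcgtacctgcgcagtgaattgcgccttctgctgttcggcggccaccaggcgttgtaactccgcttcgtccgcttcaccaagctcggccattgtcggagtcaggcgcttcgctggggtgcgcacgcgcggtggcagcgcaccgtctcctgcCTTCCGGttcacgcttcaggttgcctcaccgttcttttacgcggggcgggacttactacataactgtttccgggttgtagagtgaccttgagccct
Uqcr11, chr10:80406772-80407071, minus strand: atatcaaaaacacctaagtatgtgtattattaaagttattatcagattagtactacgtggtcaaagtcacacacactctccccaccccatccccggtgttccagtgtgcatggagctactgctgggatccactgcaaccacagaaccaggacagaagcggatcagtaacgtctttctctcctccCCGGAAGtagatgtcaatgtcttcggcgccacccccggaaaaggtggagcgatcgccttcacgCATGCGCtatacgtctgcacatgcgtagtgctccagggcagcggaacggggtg
Cox6a1, chr5:115348909-115349208, minus strand: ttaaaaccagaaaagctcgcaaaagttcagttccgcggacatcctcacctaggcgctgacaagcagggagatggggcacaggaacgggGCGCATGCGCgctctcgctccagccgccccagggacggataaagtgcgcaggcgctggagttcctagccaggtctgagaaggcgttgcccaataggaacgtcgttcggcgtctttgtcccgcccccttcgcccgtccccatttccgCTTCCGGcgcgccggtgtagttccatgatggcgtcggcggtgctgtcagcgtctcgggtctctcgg

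A promoter was found for 74 of the 94 genes. The group was counted by gene and the background by promoter, over all promoters whether or not their genes were tested here. GCGCATG occurred in a promoter of 14 of these 74 genes (18.9%), against 3.91% of all 32851 mouse promoters in the table. CCGGAAG occurred in 19 (25.7%), against 8.86% of all promoters. Another run, AAGATGG, part of the motif of YY1, occurred in 12 (16.2%), against 6.34% of all. At least 1 of these runs was present for 36 of the 74 genes (48.6%), against 17.5% of all promoters. Within the group, 26 of the 47 genes with a promoter that were lower at the basophilic stage on the adequate diet had 1, and so did 10 of the other 27. A match describes letters in this window and does not show that a factor binds there.

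The largest differences within the gene group were between stages. On the deficient diet 28 of the 91 tested genes were lower in basophilic erythroblasts than in proerythroblasts (limma, adjusted p under 0.05) and 5 were higher, Cox6b2, Cox6a2, Ndufa1, Cox6a1 and Cox4i2. On the adequate diet 57 were lower and 3 were higher, Cox6a2, Cox4i2 and Atp5l. The stage differences were wide over the whole array: 56.0% of the 20128 genes tested passed on the deficient diet (24.9% lower and 31.1% higher), and 54.2% on the adequate diet (25.6% lower and 28.7% higher). Of the oxidative phosphorylation genes, 30.8% were lower and 5.49% higher on the deficient diet, and 62.6% were lower and 3.3% higher on the adequate diet. The share lower was thus near that of all genes on the deficient diet and above it on the adequate diet, and the share higher was below it on both.

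The median stage difference of the 91 genes was -0.29 on the deficient diet and -0.62 on the adequate diet, against 0.08 and 0.12 for all genes tested. Values spread less on basophilic arrays, with interquartile ranges over all features of 2.17 to 2.49, against 2.59 to 2.66 on proerythroblast arrays. The 91 genes are bright, with array medians of 8.32 to 9.68, against 5.13 to 5.55 over all features. The part of the narrower spread in the stage differences was not tested. The zero point depended on the scaling. Median centring moved the median of all genes by over 0.1, while quantile normalization moved it less than it moved the median of the 91 genes. With quantile normalization the medians were -0.04 on the deficient and -0.43 on the adequate diet (all genes 0.13 and 0.11), with 15 genes lower and 12 higher, and 45 lower and 4 higher. With median centring they were -0.48 and -0.83 (all genes -0.12 and -0.09), with 34 lower and 2 higher, and 61 lower and 1 higher. The shares of all genes called under these other scalings are not given here. The counts also turned on single arrays. The shares of all genes called with arrays left out are not given here. The losses that follow are therefore not read as particular to this gene group. Of 33 calls on the deficient diet 14 were kept whichever array was left out, and of 60 on the adequate diet 34. For the deficient diet, 18 genes passed without deficient basophilic replicate 2, 17 without deficient proerythroblast replicate 1 and 14 without deficient proerythroblast replicate 3. On the adequate diet 34 passed without adequate basophilic replicate 2 and 36 without adequate proerythroblast replicate 1. With replicate 2 of both basophilic groups left out, 29 were lower and 8 higher on the deficient diet. On the adequate diet 57 were then lower and 3 higher. The medians were then -0.16 on the deficient and -0.45 on the adequate diet (all genes 0.06 and 0.12).

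All 28 genes that were lower on the deficient diet were also lower on the adequate diet, which is the whole of the first set and 49.1% of the second. The stage difference was not shown to depend on diet for any single gene: the interaction, which is the diet difference in basophilic erythroblasts minus that in proerythroblasts, was called for 0 of 91 genes by limma, against 0.303% of all genes, and 9 of the 91 (9.89%) had an unadjusted p under 0.05, against 9.15% of all genes.

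**Figure D1:**
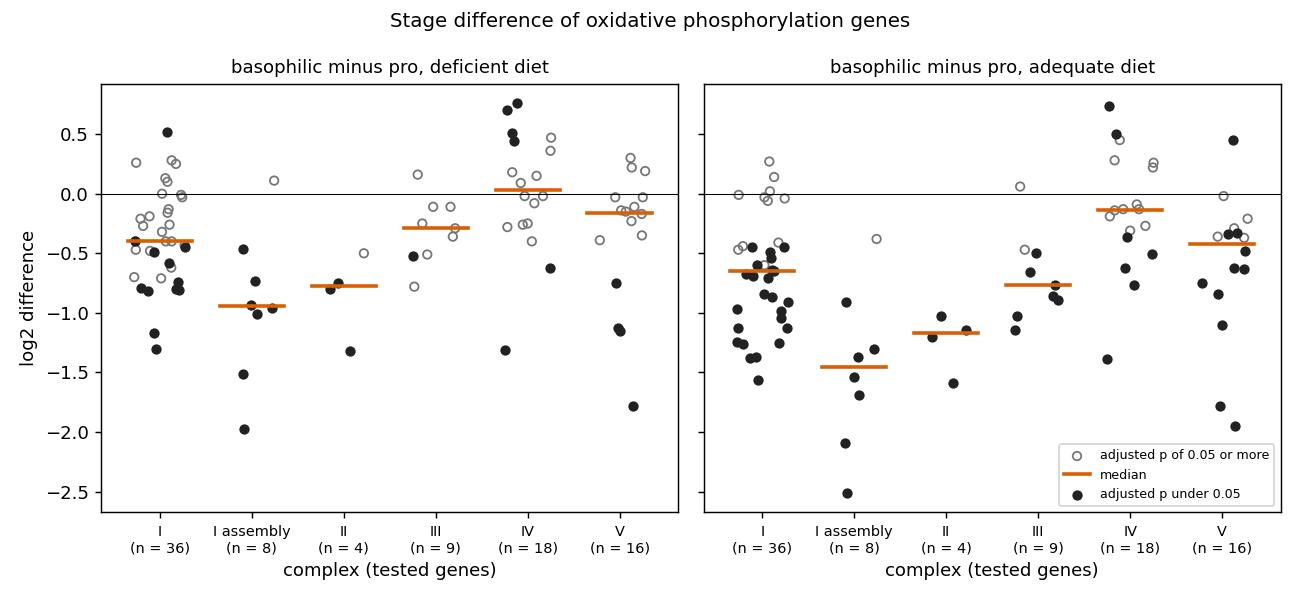
Stage difference (basophilic minus pro, log2) of each tested gene by complex, on the deficient diet (left) and the adequate diet (right). Filled points passed an adjusted p of 0.05 and orange bars are medians; the medians on the adequate diet run from -1.45 for the complex I assembly factors to -0.14 for complex IV.

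The complexes differed in how far their genes were shifted. On the deficient diet the median stage differences were -0.40 for complex I, -0.94 for its assembly factors, -0.77 for complex II, -0.29 for complex III, 0.03 for complex IV and -0.16 for complex V. On the adequate diet they were -0.65, -1.45, -1.17, -0.77, -0.14 and -0.42 in the same order. After quantile normalization the medians on the deficient diet were -0.09, -0.82, -0.49, 0.02, 0.24 and 0.04 (all genes 0.13), so those of complexes III and V changed sign, and on the adequate diet -0.44, -1.40, -0.96, -0.50, 0.03 and -0.23 (all genes 0.11). After median centring they were -0.59, -1.14, -0.96, -0.48, -0.16 and -0.36 on the deficient diet and -0.86, -1.66, -1.38, -0.98, -0.35 and -0.63 on the adequate diet. Assembly factors and complex II had the lowest medians under all 3 scalings on both diets. The counts per complex below stand against 24.9% of all genes lower and 31.1% higher on the deficient diet. On the adequate diet these shares were 25.6% and 28.7%. They come from the fit on the deposited values, and the shares under the other scalings are not given here.

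The complex I assembly factors are not part of the finished enzyme but build or modify its arms. Of the 8, 7 fell at the basophilic stage on each diet (5 and 7 after quantile normalization), and Ndufaf3 did not pass on either (0.11 ± 0.24 on the deficient and -0.38 ± 0.24 on the adequate diet, here and below difference ± SE). Ndufaf4 read 6.51, 5.57 and 6.79 in deficient basophilic arrays, against 8.64, 7.80 and 8.33 in deficient proerythroblasts. It read 6.27, 5.69 and 6.16 in adequate basophilic arrays, against 8.59, 8.62 and 8.44 in adequate proerythroblasts. No basophilic array came within 1 log2 unit of a proerythroblast array of the same diet, and the differences were -1.97 ± 0.30 (adjusted p = 0.00107) and -2.51 ± 0.30 (adjusted p = 6.4e-05, n = 3 each, limma). The promoter printed above for this gene carries the NRF1 letters at 2 places, once on both strands and once beginning 1 base after the start site.

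Ndufaf6 read 6.23, 5.89 and 5.80 in deficient basophilic arrays, against 7.50, 7.55 and 7.41 in deficient proerythroblasts. It read 5.63, 6.23 and 5.92 in adequate basophilic arrays, against 7.98, 8.09 and 7.98 in adequate proerythroblasts. The groups were far apart on both diets, with differences of -1.51 ± 0.16 (adjusted p = 0.000199) and -2.09 ± 0.16 (adjusted p = 3.97e-06, limma, n = 3 each). Ndufaf7, a mitochondrial methyltransferase, was at -1.01 on the deficient diet and at -1.69 on the adequate diet (SE 0.21, adjusted p = 0.00532 and 7.97e-05). Ndufaf2 and Ndufaf5 also kept their calls on both diets whichever array was left out, as did Ndufaf4, Ndufaf6 and Ndufaf7. Ndufaf1 and Ndufaf8 kept theirs on the adequate diet, and lost them on the deficient diet without deficient basophilic replicate 2, among other arrays.

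Complex I itself has a peripheral arm that oxidises NADH and a membrane arm that pumps protons. Of its 36 genes 11 fell and Ndufa1 rose on the deficient diet, and 24 fell and 0 rose on the adequate diet. After quantile normalization the counts on the deficient diet were 4 lower and 5 higher, and on the adequate diet 19 lower and 0 higher. Among the measured catalytic subunits, Ndufs1, Ndufs3, Ndufs7, Ndufs8 and Ndufv2 fell on the adequate diet, with differences of -0.91, -1.13, -0.60, -1.26 and -0.84. Ndufv1, which binds NADH, was at -0.65 ± 0.28 on that diet and did not pass (adjusted p = 0.0671). On the deficient diet Ndufs1 (-0.45), Ndufs7 (-0.49) and Ndufs8 (-0.79) fell, while Ndufs3 (-0.43), Ndufv1 (-0.62) and Ndufv2 (-0.71) did not pass. The deficient diet calls of Ndufs1, Ndufs7 and Ndufs8, and the adequate diet calls of Ndufs7 and Ndufv2, were lost when replicate 2 of the basophilic group concerned was left out. With replicate 2 of both basophilic groups left out, Ndufs7 (-0.33, adjusted p = 0.0306) and Ndufs8 (-0.6, adjusted p = 0.0355, limma) passed on the deficient diet. Ndufs1 did not (-0.34, adjusted p = 0.0783). On the adequate diet Ndufs7 (-0.46, adjusted p = 0.00582) and Ndufv2 (-0.57, adjusted p = 0.00127) then passed. After quantile normalization Ndufs1 (-0.11, adjusted p = 0.51), Ndufs7 (-0.09, adjusted p = 0.511) and Ndufs8 (-0.41, adjusted p = 0.105) did not pass on the deficient diet, nor did Ndufs7 on the adequate diet (-0.31, adjusted p = 0.0612).

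The accessory subunit Ndufb5 had the largest difference in complex I on the adequate diet. It read 6.63, 6.46 and 6.54 in deficient basophilic arrays, against 8.05, 7.67 and 7.81 in deficient proerythroblasts. It read 6.87, 6.20 and 6.92 in adequate basophilic arrays, against 8.41, 8.17 and 8.10 in adequate proerythroblasts. The groups did not overlap, and the differences were -1.30 ± 0.19 (adjusted p = 0.000889) and -1.56 ± 0.19 (adjusted p = 7.5e-05, limma, n = 3 each). Ndufc2 fell on both diets (-1.17 and -1.37) and kept both calls whichever array was left out. Ndufa10 fell on both as well (-0.82 and -1.38), and its deficient diet call was lost without deficient basophilic replicate 2 (-0.51 after quantile normalization, where it passed). It also passed on that diet without replicate 2 of both basophilic groups (-0.49, adjusted p = 0.0136, limma).

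Other accessory subunits were level between stages. Ndufa7 was at -0.03 ± 0.12 on the deficient and -0.04 ± 0.12 on the adequate diet, and Ndufb9 at 0.10 ± 0.19 and 0.02 ± 0.19. Ndufa1, a small membrane-arm subunit needed for assembly, read 10.99, 11.48 and 11.22 in deficient basophilic arrays against 10.91, 10.39 and 10.83 in deficient proerythroblasts. It was higher by 0.52 ± 0.18 (adjusted p = 0.029), and passed neither with median centring (0.33, adjusted p = 0.105) nor without deficient basophilic replicate 2. It passed without replicate 2 of both basophilic groups (0.39, adjusted p = 0.0446, limma).

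Complex II has 4 subunits, the flavoprotein Sdha, the iron-sulfur subunit Sdhb and the membrane anchors Sdhc and Sdhd. All but Sdhb fell on the deficient diet, and all 4 fell on the adequate diet. Sdhd read 8.02, 7.40 and 7.86 in deficient basophilic arrays, against 9.30, 8.77 and 9.17 in deficient proerythroblasts. It read 8.20, 7.78 and 8.11 in adequate basophilic arrays, against 9.73, 9.50 and 9.63 in adequate proerythroblasts. The groups were separate on both diets, with differences of -1.32 ± 0.19 (adjusted p = 0.000889) and -1.59 ± 0.19 (adjusted p = 7.45e-05, limma, n = 3 each). Sdha fell on the deficient and the adequate diet (-0.75 and -1.03), and so did Sdhc (-0.80 and -1.20). Sdhb was at -0.50 ± 0.23 (adjusted p = 0.0831) on the deficient diet and fell by 1.14 on the adequate diet. On the deficient diet the call of Sdhd held with any array left out, while those of Sdha and Sdhc were lost without deficient basophilic replicate 2 and after quantile normalization (-0.40 and -0.58, adjusted p = 0.0581 and 0.109), and the adequate diet calls of all 4 held. Without replicate 2 of both basophilic groups Sdha (-0.48, adjusted p = 0.0149) and Sdhc (-0.56, adjusted p = 0.00957, limma) passed on the deficient diet.

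**Figure D2:**
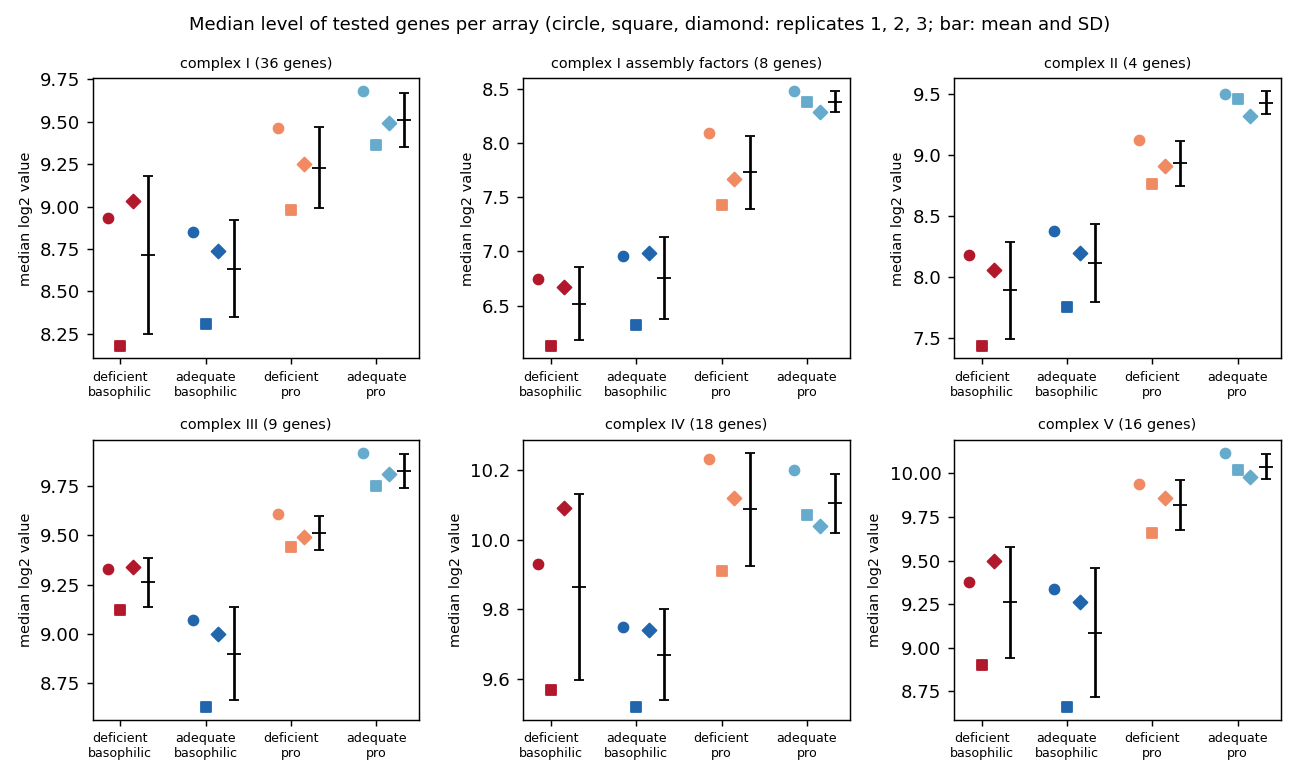
Median log2 value of the tested genes of each complex on each of the 12 arrays, with the group mean and SD (n = 3) beside the points. Assembly factor medians were 6.13 to 6.75 and 6.32 to 6.99 in deficient and adequate basophilic arrays, against 7.43 to 8.09 and 8.29 to 8.48 in deficient and adequate proerythroblast arrays; complex IV medians were closest between stages. Axes differ between panels and do not start at 0.

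Complex III, the cytochrome bc1 complex, had 1 of 9 subunits, Uqcrc2, lower at the basophilic stage on the deficient diet and 7 on the adequate diet. Over all genes 24.9% and 25.6% were lower, so the count on the deficient diet was below the share of the array. Uqcrc2, a core subunit, read 9.04, 8.72 and 9.21 in deficient basophilic arrays against 9.60, 9.44 and 9.49 in deficient proerythroblasts. It read 8.80, 8.47 and 8.72 in adequate basophilic arrays against 9.92, 9.75 and 9.74 in adequate proerythroblasts. The gap was narrower on the deficient diet, -0.52 ± 0.15 (adjusted p = 0.0168) against -1.14 ± 0.15 (adjusted p = 0.000121, limma, n = 3 each) on the adequate diet, and the test of that difference did not pass (0.62 ± 0.21, adjusted p = 0.296). The first call was lost without deficient proerythroblast replicate 1 or 3, and after quantile normalization (-0.17, adjusted p = 0.229). The redox subunits Cyc1 (cytochrome c1) and Uqcrfs1 (the Rieske protein) fell on the adequate diet (-1.03 and -0.66), calls that were lost without adequate basophilic replicate 2 (Uqcrfs1 also after quantile normalization, at -0.39, adjusted p = 0.101), and were at -0.78 and -0.51 on the deficient diet (adjusted p = 0.0789 and 0.0715). With replicate 2 of both basophilic groups left out, Cyc1 (-0.67, adjusted p = 0.00552) and Uqcrfs1 (-0.5, adjusted p = 0.00902, limma) passed on the adequate diet. Uqcrh, the hinge protein, was at 0.16 ± 0.13 on the deficient and 0.06 ± 0.13 on the adequate diet.

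Complex IV, cytochrome c oxidase, held the only genes besides Ndufa1 and Atp5l that were called higher. Of its 18 tested genes 2 fell and 4 rose on the deficient diet, and on the adequate diet 5 fell and 2 rose. Over all genes 24.9% fell and 31.1% rose on the deficient diet, and 25.6% fell and 28.7% rose on the adequate diet. Cox5a, a subunit of the matrix side, fell most, with -1.31 ± 0.45 on the deficient diet (adjusted p = 0.0297) and -1.39 ± 0.45 on the adequate diet (adjusted p = 0.0253, limma, n = 3 each). It read 9.95, 8.06 and 10.07 in deficient basophilic arrays, against 10.88, 10.48 and 10.66 in deficient proerythroblasts, and replicate 2 was by far the lowest. Without replicate 2 of both basophilic groups its differences were -0.66 (adjusted p = 0.00187) and -1.04 (adjusted p = 8.01e-05). Cox7c fell on both diets (-0.62 and -0.51), and Cox5b (-0.62), Cox6b1 (-0.77) and Cox8a (-0.36) fell on the adequate diet. Each of these calls was lost without replicate 2 of the basophilic group of its diet. Quantile normalization ended those of Cox7c on the deficient diet (-0.24, adjusted p = 0.101) and Cox8a (-0.24, adjusted p = 0.125). With replicate 2 of both basophilic groups left out, Cox7c passed on the deficient diet (-0.45, adjusted p = 0.00812, limma). On the adequate diet Cox5b (-0.42, adjusted p = 0.0151), Cox6b1 (-0.57, adjusted p = 0.00876) and Cox8a (-0.27, adjusted p = 0.0303) then passed.

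Of the 4 complex IV genes called higher, Cox6a2, Cox6b2 and Cox4i2 are tissue-restricted isoforms and Cox6a1 is a general one. Cox6a2, the heart and muscle isoform, read 6.24, 6.92 and 6.18 in deficient basophilic arrays against 5.73, 5.77 and 5.73 in deficient proerythroblasts. It read 6.40, 6.52 and 6.26 in adequate basophilic arrays against 5.55, 5.65 and 5.75 in adequate proerythroblasts. The stages did not overlap, and it rose by 0.70 ± 0.18 (adjusted p = 0.012) and 0.74 ± 0.18 (adjusted p = 0.00706, limma, n = 3 each), calls that held with any array left out and under both other scalings. These are low readings, and the array with the highest background, deficient basophilic replicate 2, gave the highest one. Cox6a1, the general isoform, rose on the deficient diet by 0.51 ± 0.15 (adjusted p = 0.0184) and was at 0.28 ± 0.15 on the adequate diet (adjusted p = 0.125). Its deficient diet call was lost with median centring (0.32, adjusted p = 0.0832).

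Cox6b2, known as a testis isoform, read 10.46, 10.53 and 10.63 in deficient basophilic arrays, against 10.01, 9.32 and 10.01 in deficient proerythroblasts. It read 9.73, 10.08 and 10.01 in adequate basophilic arrays, against 9.57, 9.51 and 9.40 in adequate proerythroblasts. The stages were separate on both diets, with a rise of 0.76 ± 0.18 on the deficient diet (adjusted p = 0.01) and a difference of 0.45 ± 0.18 on the adequate diet that did not pass (adjusted p = 0.0555, limma, n = 3 each). The general isoform Cox6b1 was at -0.40 ± 0.22 on the deficient diet (adjusted p = 0.134) and fell on the adequate diet. Cox4i2, known in lung and under low oxygen, rose by 0.44 ± 0.14 (adjusted p = 0.0243) and 0.50 ± 0.14 (adjusted p = 0.0155), and lost both calls with median centring (adjusted p = 0.0894 and 0.0617). Cox4i1, its general counterpart, was at -0.02 ± 0.15 and -0.27 ± 0.15 and passed on neither diet.

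The other complex IV isoforms passed in neither comparison. Cox7a1, the heart and muscle isoform, was at 0.36 ± 0.21 on the deficient and 0.22 ± 0.21 on the adequate diet, Cox7a2 at 0.09 and -0.13, and Cox7a2l, which acts in supercomplexes, at -0.28 and -0.19 (adjusted p = 0.0778 and 0.219). Cox7b was at -0.08 and -0.09, Cox8c at 0.47 and 0.26 (adjusted p = 0.0602 and 0.273), and Ndufa4 at -0.25 and -0.31. The untested Cox7b2 lay between 3.72 and 4.26 on all arrays. Cox8b and Ndufa4l2 reached 6.66 and 5.94 on deficient basophilic replicate 2, the array with the highest background, and were at most 5.41 and 5.33 on the other arrays.

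**Figure D3:**
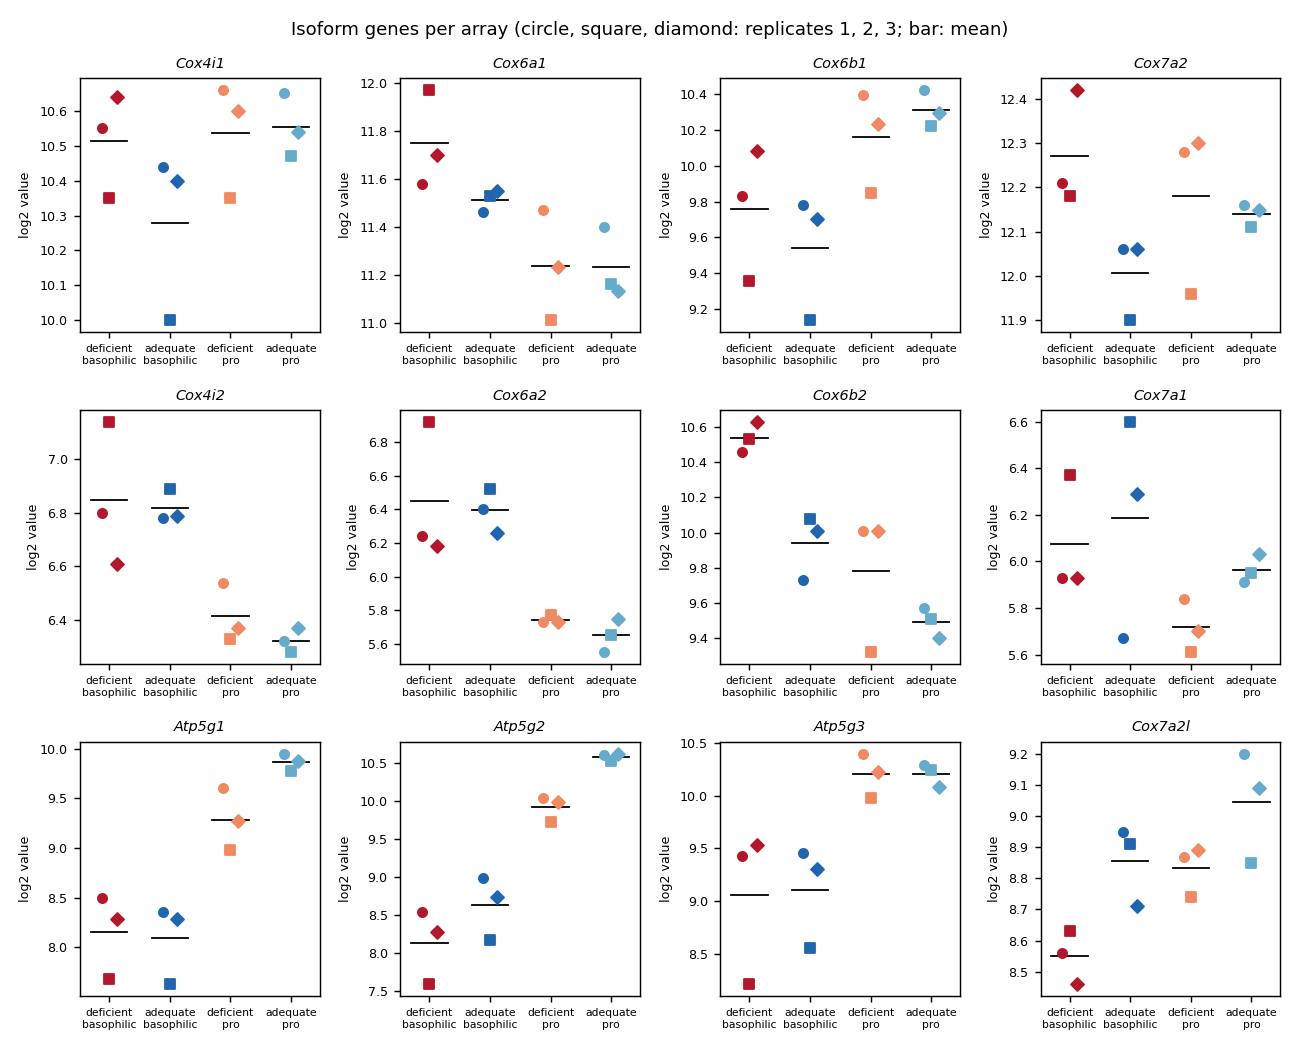
Log2 value of isoform genes on each array (circle, square and diamond are replicates 1, 2 and 3, the bar is the group mean; each panel has its own axis, which does not start at 0). Atp5g1, Atp5g2 and Atp5g3 were lower in both basophilic groups, while Cox4i2, Cox6a2 and Cox6b2 were higher.

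Complex V, the ATP synthase, had 4 of 16 genes lower at the basophilic stage on the deficient diet, and 10 lower and Atp5l higher on the adequate diet. The count on the deficient diet was near the share of all genes lower, 24.9%, and on the adequate diet that share was 25.6%. The largest differences in complex V were in the 3 genes of subunit c, the proton-carrying ring. Atp5g2 read 8.54, 7.59 and 8.28 in deficient basophilic arrays against 10.04, 9.72 and 9.99 in deficient proerythroblasts. It read 8.98, 8.17 and 8.74 in adequate basophilic arrays against 10.60, 10.52 and 10.62 in adequate proerythroblasts. Every basophilic array lay below every proerythroblast array, and the differences were -1.78 ± 0.25 on the deficient diet (adjusted p = 0.000669) and -1.95 ± 0.25 on the adequate diet (adjusted p = 9.71e-05, limma, n = 3 each). The feature used lies on chromosome 7 while the gene is on chromosome 15, so its reading is uncertain; the feature on chromosome 15 gave -1.88 and -2.01.

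Atp5g1 fell on both diets, with -1.13 ± 0.25 (adjusted p = 0.00692) and -1.78 ± 0.25 (adjusted p = 0.000198), and so did Atp5g3, with -1.15 ± 0.32 (adjusted p = 0.0164) and -1.10 ± 0.32 (adjusted p = 0.0176, limma). The calls of Atp5g1 and Atp5g2 held with any array left out, while those of Atp5g3 did not. In the catalytic head, Atp5a1 fell on both diets (-0.75 and -0.84) and kept both calls, and Atp5b, the subunit that makes ATP, was at -0.15 ± 0.11 on the deficient diet and fell by 0.34 ± 0.11 on the adequate diet (adjusted p = 0.0217), a call lost without adequate basophilic replicate 2 and after quantile normalization (-0.21, adjusted p = 0.205). Without replicate 2 of both basophilic groups Atp5b passed on the adequate diet (-0.34, adjusted p = 0.00458, limma). The stalk subunit Atp5h was at -0.14 and -0.02. Atp5l, subunit g of the membrane part, rose by 0.45 ± 0.16 on the adequate diet (adjusted p = 0.0323), which was lost with median centring (0.24, adjusted p = 0.18). Its used feature also lies off the gene's chromosome, and its features on chromosome 9 gave 0.18 (adjusted p = 0.477) and 0.86 (adjusted p = 0.00269). Atpif1, the inhibitor of the ATP synthase that the symbol rule does not take in, averaged 9.89 ± 0.06 in deficient basophilic against 9.69 ± 0.11 in deficient proerythroblast arrays, and 10.11 ± 0.05 in adequate basophilic against 9.36 ± 0.16 in adequate proerythroblast arrays (SD, n = 3). It rose on the adequate diet by 0.75 ± 0.12 (adjusted p = 0.000572, limma) and was at 0.19 on the deficient diet.

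Other mitochondrial lists had most or many members lower at the basophilic stage, too. Over all genes 24.9% were lower on the deficient diet and 25.6% on the adequate diet. Of 13 citric acid cycle genes 10 fell on each diet, of 30 assembly factors of complexes II to V 16 fell and 1 rose on the deficient diet and 22 fell and 1 rose on the adequate diet. Of 13 genes of coenzyme Q synthesis and cytochrome c, 6 fell on the deficient diet, and 8 fell and 1 rose on the adequate diet. Tfam, which packages and transcribes mitochondrial DNA, fell on both diets (-1.39 and -1.31, adjusted p = 0.000102 and 8.36e-06), and was 1 of 5 among 11 tested regulators that fell on each diet. Neutrophil markers moved with stage as well: the summed log2 values of all 8 were 51.2 to 55.3 in deficient basophilic against 61.0 to 68.7 in deficient proerythroblast arrays, and 47.8 to 52.9 in adequate basophilic against 58.4 to 71.6 in adequate proerythroblast arrays, with 6 and 7 of 8 lower. The part of neutrophils in the stage differences was not tested.

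The diet comparison asks whether selenium deficiency altered these genes within a stage. In proerythroblasts 0 of 91 genes passed, against 4.02% of all genes tested, and 11 (12.1%) had an unadjusted p under 0.05, against 14.0% of all genes (limma). In basophilic erythroblasts 0 of 91 passed, against 0.0199% of all genes, and 15 (16.5%) had an unadjusted p under 0.05, against 6.48% of all genes. The median diet difference was -0.11 in proerythroblasts (all genes 0.02) and 0.15 in basophilic erythroblasts (all genes 0.04). Without deficient proerythroblast replicate 2, whose median over the 91 genes was the lowest of its group (9.0, against 9.57 and 9.27), the first median was -0.00. Without adequate basophilic replicate 2 the second was 0.06, and without deficient basophilic replicate 2 it was 0.30.

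The sample titles give replicate numbers but state no pairing of arrays. Deviations of same-numbered arrays correlated within each stage, and a fit with the replicate number as a block changed the calls. With it 9 genes (9.89%) were lower in deficient proerythroblasts, against 11.1% of all genes called in either direction, so the share of these genes was near that of the array. They were Ndufaf1, Ndufaf3, Ndufaf5, Ndufaf7, Ndufb2, Sdha, Sdhd, Atp5g1 and Atp5g2. Without replicate 2 of both basophilic groups 13 genes (14.3%) passed in proerythroblasts, against 16.3% of all genes. In basophilic erythroblasts the blocked fit called Ndufb6 and Ndufs3 higher on the deficient diet, 2.2% against 1.45% of all genes.

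**Figure D4:**
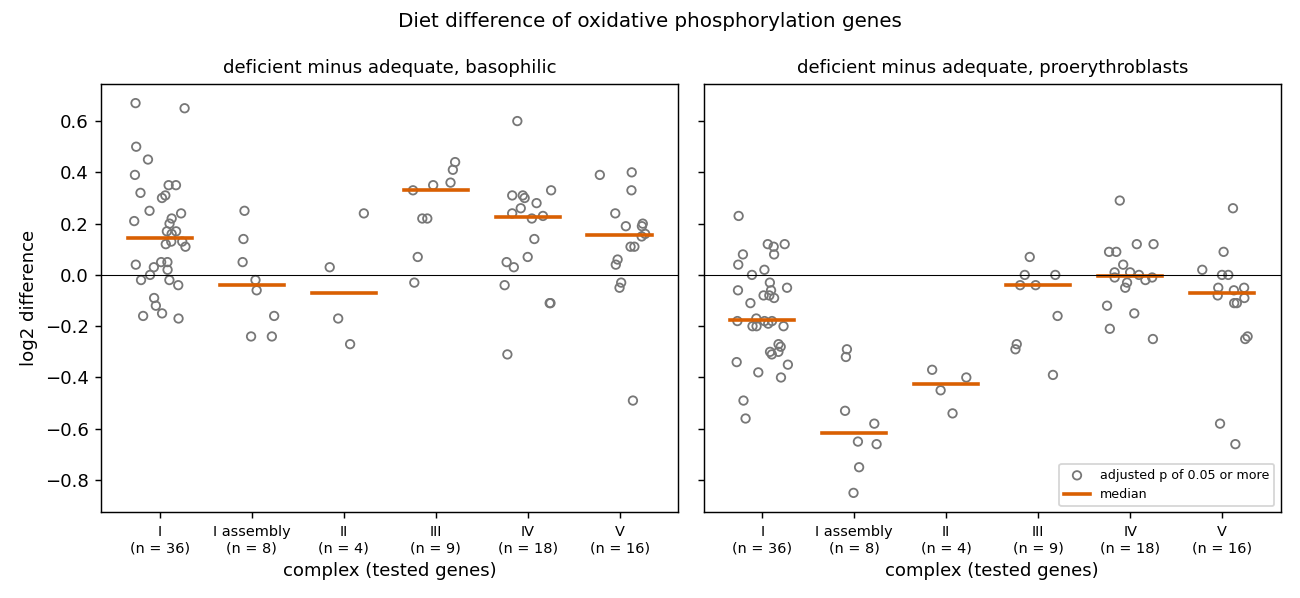
Diet difference (deficient minus adequate, log2) of each tested gene by complex, in basophilic erythroblasts (left) and proerythroblasts (right). No point is filled, since none passed an adjusted p of 0.05; orange medians in proerythroblasts are lowest for the complex I assembly factors (-0.62) and complex II (-0.43), and are near 0 for complexes III to V.

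The median differences in proerythroblasts varied between complexes, though no gene passed the unblocked test. The medians per complex without deficient proerythroblast replicate 2 are not given here. The median diet difference was -0.62 for the 8 assembly factors and -0.43 for complex II, against -0.18 for complex I, -0.04 for complex III, -0.00 for complex IV and -0.07 for complex V. All 3 deficient arrays were below all 3 adequate arrays for 23 of the 91 genes (25.3%), against 15.6% of all genes. They included 7 of 8 assembly factors and all 4 complex II subunits, but 1 of 18 complex IV genes. All 3 deficient arrays were above all 3 adequate arrays for 2 of the 91 genes. The share of all genes above is not given here.

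Ndufaf7 read 8.13, 7.40 and 7.67 in deficient proerythroblasts, against 8.61, 8.45 and 8.38 in adequate proerythroblasts. The groups did not overlap, and the difference was -0.75 ± 0.21 (adjusted p = 0.0739, limma, and 0.0171 with the block, n = 3 each). Ndufaf1 read 8.05, 7.35 and 7.67 in deficient against 8.65, 8.64 and 8.34 in adequate proerythroblasts, a difference of -0.85 ± 0.32 (adjusted p = 0.21, and 0.0152 with the block). Here too replicate 2 was the lowest deficient array. Ndufb2, an accessory subunit of the membrane arm, read 7.38, 6.88 and 7.30 in deficient against 7.75, 7.88 and 7.61 in adequate proerythroblasts. It had the smallest p of the 91 genes in this comparison, at -0.56 ± 0.15 (adjusted p = 0.0572, and 0.0359 with the block).

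Ndufaf5, Ndufaf6 and Ndufaf2 were next, at -0.65, -0.53 and -0.58 (adjusted p = 0.0668, 0.11 and 0.123). In complex II, Sdhd read 9.30, 8.77 and 9.17 in deficient against 9.73, 9.50 and 9.63 in adequate proerythroblasts, a difference of -0.54 ± 0.19 (adjusted p = 0.181, and 0.0137 with the block). Sdha, Sdhb and Sdhc were at -0.45, -0.40 and -0.37 (adjusted p = 0.498, 0.541 and 0.748). Atp5g1 and Atp5g2 were at -0.58 and -0.66 (adjusted p = 0.296 and 0.205, and 0.0129 and 0.00439 with the block), while the sister gene Atp5g3 was at -0.00.

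Some genes that serve the complexes from outside the group passed the unblocked test here, where 4.02% of all genes passed in either direction. Of the 30 assembly factors of complexes II to V, 3 fell in deficient proerythroblasts: Bcs1l, which inserts the Rieske protein into complex III (-1.27, adjusted p = 0.0108), Uqcc1, another complex III factor (-0.70, adjusted p = 0.00579), and Taco1, a translational activator of mitochondrial Cox1 (-0.69, adjusted p = 0.0269). Tfam fell by 0.50 (adjusted p = 0.032), and was the 1 of 11 regulators that passed. None of the 13 citric acid cycle genes and none of the 13 genes of coenzyme Q and cytochrome c passed. Of 3 tested progenitor markers, Kit (-2.18) and Myb (-2.06) fell in the same comparison and Gata2 did not (-0.08, adjusted p = 0.998, limma). The summed erythroblast markers were higher in deficient than in adequate proerythroblasts, as given above. The part of these markers in the differences was not tested.

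In basophilic erythroblasts the differences leaned the other way. All 3 deficient arrays were above all 3 adequate arrays for 18 of the 91 genes (19.8%), against 4.13% of all genes, and below them for 1, Cox7a2l. The share of all genes below is not given here. Between arrays of the same number, 46 genes (50.5%) were higher in the deficient array of every pair, against 17.1% of all genes, and 9 (9.89%) were lower in every pair, against 16.2%. In proerythroblasts 6 (6.59%) were higher in every pair, against 24.5% of all genes, and 42 (46.2%) were lower, against 24.0%. Median differences were 0.33 for complex III, 0.22 for complex IV and 0.15 each for complexes I and V, and -0.04 and -0.07 for the assembly factors and complex II.

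Cox6b2 had the smallest p, at 0.60 ± 0.18 (adjusted p = 0.422, limma, n = 3 each), and its 3 deficient arrays (10.46, 10.53 and 10.63) were all above the adequate ones (9.73, 10.08 and 10.01). Ndufb6, a membrane-arm subunit, read 10.44, 9.89 and 10.58 in deficient against 9.87, 9.16 and 9.87 in adequate basophilic arrays. It lay higher by similar amounts in each pair, and the difference was 0.67 ± 0.23 (adjusted p = 0.526, and 0.034 with the block). Ndufs3, a core subunit of the peripheral arm, was at 0.65 ± 0.28 (adjusted p = 0.718, and 0.0417 with the block) with overlapping groups. The pseudogene Ndufa11b was at 0.50, Ndufa12 at 0.39 and Uqcr10 at 0.41 (adjusted p = 0.53, 0.628 and 0.679).

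The diet by stage interaction was below 0 for 7 of the 91 genes, with a median of 0.28 (all genes 0.03), and none passed the test. Uqcr11, the smallest subunit of complex III, had the smallest p. It read 9.33, 9.12 and 9.34 in deficient against 9.07, 8.63 and 9.0 in adequate basophilic arrays, and 9.61, 9.06 and 9.46 in deficient against 9.80, 9.68 and 9.81 in adequate proerythroblasts. It was the 1 gene of the 91 whose deficient arrays were all higher in basophilic cells and all lower in proerythroblasts. The share of all genes with this pattern is not given here, so the count is not read as particular to the group. The interaction of Uqcr11 was 0.75 ± 0.23 (adjusted p = 0.265, limma, n = 3 per group). With the block, Uqcr11 (adjusted p = 0.0467) and Ndufb6 (0.73, adjusted p = 0.0481) passed, which is 2.2% of the genes against 2.93% of all genes. Uqcrc2 was at 0.62, Ndufa12 at 0.57, Ndufa13 at 0.65 and Ndufaf5 at 0.63 (adjusted p = 0.296, 0.354, 0.356 and 0.417). Kit and Myb had interactions of 2.13 and 2.15 (adjusted p = 0.0051 and 0.00849, limma), and Gata2 was at 0.23 (adjusted p = 0.999). The part of these markers was not tested.

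**Figure D5:**
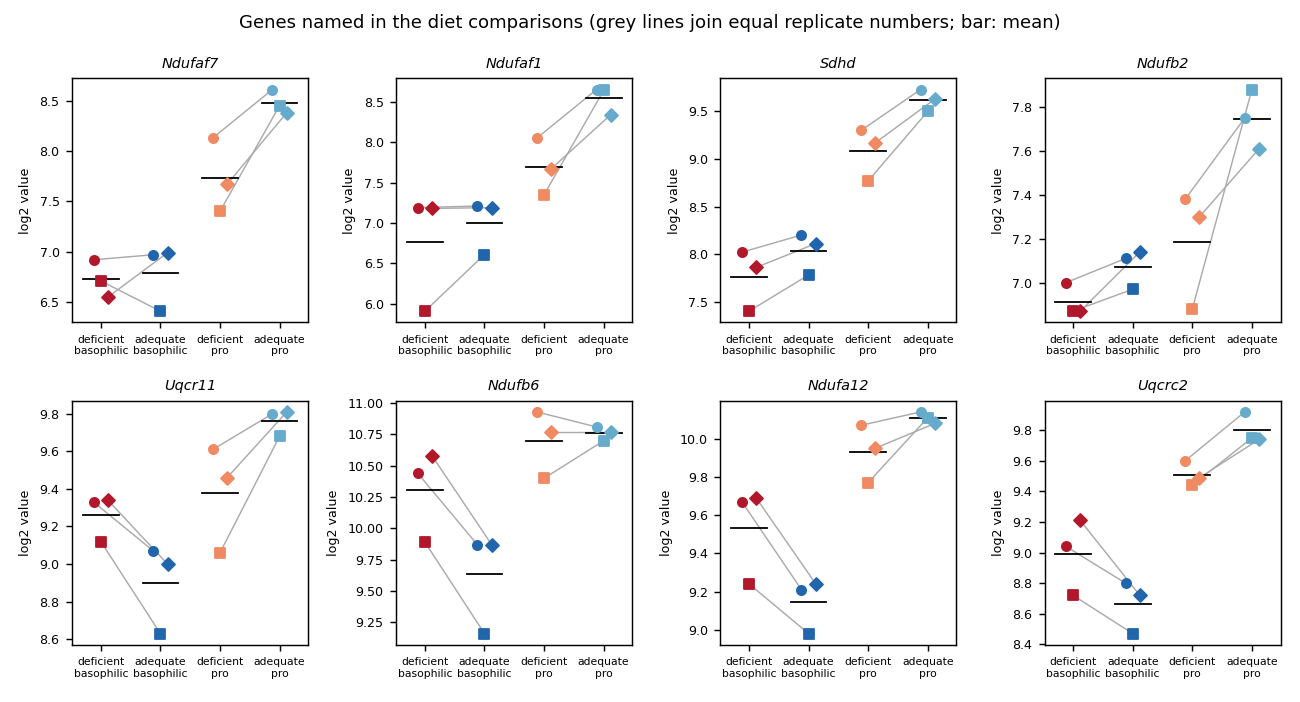
Log2 value on each array of 8 genes named in the diet comparisons, with grey lines joining deficient and adequate arrays of the same replicate number within a stage and bars at group means; axes do not start at 0. Ndufaf7, Ndufaf1, Sdhd and Ndufb2 lie lower in deficient than in adequate proerythroblasts, and Uqcr11 and Ndufb6 lie higher in deficient than in adequate basophilic erythroblasts.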

How the data were processed

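The values are the log2 expression values that the authors deposited, made with Affymetrix Expression Console per the submitters' processing notes; background correction, summarisation and normalization are not given in the sources used here. The medians of the 12 arrays differed, so they do not share 1 distribution. Features were named through GEO's platform annotation, with symbols updated to RefSeq (GRCm38.p6): 31258 of 72688 features named 1 gene, 1492 several and 39938 none. A gene was its feature with the highest mean, and 20128 genes were tested: those with 3 or more arrays above 5.3, the median over the table. Group means were fitted with limma 3.58.1 (lmFit, eBayes) in R 4.3.3 over 12 arrays, with 5 comparisons and Benjamini-Hochberg adjustment over all genes tested at 0.05. The fit was tested on simulated data. Deviations of same-numbered arrays correlated at 0.18 to 0.782 within each stage and at -0.165 to 0.254 between stages. The block within each stage rests on these correlations, and what the same-numbered arrays share was not tested.

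The members, lists and alternatives were chosen with earlier results of these data known. Named genes are, per comparison and complex, up to 3 called members at each end with separate groups (otherwise the 5 smallest p), the isoform families, complex II and the catalytic subunits; the other genes named, among them those called by the block, Ndufaf1, Ndufa7, Ndufb9, Uqcrh, Atp5a1, Atp5h, Cox7c and Cox8a, were chosen after their values were seen. Macrophage, B cell, T and NK cell and megakaryocyte markers were also measured. Among them 0, 0, 0 and 1 were higher in deficient proerythroblasts, 1, 0, 0 and 1 at the basophilic stage on each diet, and none was lower in these comparisons.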

Additional observations from a re-analysis of the deposited data

Results flagged for a closer look

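Uqcr11 was marked because its diet difference pointed in opposite directions in the 2 stages: every deficient array was above every adequate array in basophilic erythroblasts (9.26 ± 0.12 against 8.90 ± 0.24) and below every adequate array in proerythroblasts (9.38 ± 0.28 against 9.76 ± 0.07; SD, n = 3). How many of all genes share this pattern is not given here. The interaction of 0.75 did not pass over all genes (limma, adjusted p = 0.265), and passed with the replicate block within each stage (adjusted p = 0.0467).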

How the results depend on the processing

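For the diet in proerythroblasts, where 0 genes were called, quantile normalization gave 3, median centring 1, array weights 30, a replicate block 6, a replicate block within each stage 9 (9.89%, against 11.1% of all genes), the arrays of the comparison only 5, the fit without replicate 2 of both basophilic groups 13 (14.3%, against 16.3% of all genes) and an adjusted p under 0.1 3. Leaving out each array gave 0 to 5. For the other settings the share of all genes is not given here, so those counts, the 30 with array weights among them, are not read as particular to this gene group. For the diet in basophilic erythroblasts the replicate block within each stage gave 2 (2.2%, against 1.45% of all genes). For the interaction, array weights, the replicate block within each stage and the fit without replicate 2 of both basophilic groups gave 2 each. On the deficient diet the stage count of 33 was 12 with the arrays of the comparison only and 14 to 41 with an array left out, and the median of -0.29 was -0.04 after quantile normalization, which also turned the medians of complexes III and V to 0.02 and 0.04 and left complex I with 4 genes lower and 5 higher. On the adequate diet the count of 60 was 34 to 66 with an array left out. The shares of all genes for these alternative stage counts are not given here either. Over the 53 calls of named genes, 1093 of 1219 alternatives kept the call, 126 lost it and 0 reversed. Many of these genes were named for large differences and separate groups, and the alternatives reuse the same 12 arrays, so this choice favoured kept calls. Over all stage calls of the group, 14 of 33 on the deficient and 34 of 60 on the adequate diet were kept whichever array was left out. The causes were not tested. Array weights stopped before convergence. The replicate block within each stage was not fitted for the stage comparisons, nor the arrays of the comparison only for the interaction. The number of arrays and the raised background of the basophilic arrays limit the precision.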
